A study of Gossypium hirsutum and Gossypium barbadense with 16 samples.

Results

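The 4 genes described here are cotton homologs of Arabidopsis MYB4 and MYB6 from the study's heat map of MYB genes. Gohir.A01G167300 and Gohir.D11G181000 carried the MYB4 name, and Gohir.D11G168000 and Gohir.A13G120500 carried the MYB6 name. The heat map also gave the MYB4 name to Gohir.D01G158500 and Gohir.A11G173900, which are used here for comparison. In the study's tree Gohir.D11G168000 stands beside Arabidopsis MYB106, away from Gohir.A13G120500 and Arabidopsis MYB6. Its MYB6 name is kept as given in the heat map. They are 4 of the 52514 Gossypium hirsutum genes in the table of orthologs shared with Gossypium barbadense, and their levels were read in all 16 libraries. They were chosen by the study on their FPKM in fiber cells against epidermal cells, so that contrast and the contrast of fiber cells with GhMD17 are described without a test. Some of the 4 genes also occur among the study's gene lists for 0 DPA (days post anthesis), and it is not stated whether those lists entered the choice.

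MYB proteins are transcription factors that bind DNA through MYB repeats, and in plants the large class with a pair of these repeats governs epidermal cell fate, trichomes, cell walls and phenylpropanoid synthesis. In Arabidopsis, MYB4 is a repressor of the phenylpropanoid pathway, with the cinnamate 4-hydroxylase gene as its best known target. Arabidopsis MYB6 belongs to the same class and is less well characterized. Other MYB proteins, among them GhMYB25 and GhMYB109, are known for their part in cotton fiber initiation.

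Ovule cells were cut by laser-capture microdissection (LCM) and their polyA RNA was sequenced in 8 groups of 2 biological replicates. GhTM-1 is a G. hirsutum wild type with lint and fuzz fibers, Gb3–79 is a G. barbadense wild type, and GhMD17 is a mutant without fibers in a G. hirsutum background. At 0 DPA the outermost epidermal layer of each line was cut, which in the wild types holds the fiber initials among other epidermal cells. At 2 DPA the protruding fibers of GhTM-1 and Gb3–79 were cut first and the epidermal cells under them second, whereas GhMD17 gave epidermal cells only. The labels name no transgene or treatment, and all plants were grown in a greenhouse. The sources used here do not say that GhMD17 shares the genetic background of GhTM-1, so the lack of fibers and other differences between the lines cannot be told apart. In such tissue samples, fewer cells of a type and less RNA per cell cannot be told apart.

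The deposited values are FPKM, fragment numbers scaled both by transcript length and by how many fragments each library mapped, so that levels of different genes can be set side by side per length. The number of orthologs above 1 FPKM ran from 25689 to 29504 by library, and the summed FPKM of the orthologs ran from 521813 to 661014. Counts were not used here, so the depth behind a single gene is unknown, and 2 libraries per group set the precision. The reads of GhTM-1 and GhMD17 were mapped to the G. hirsutum genome and those of Gb3–79 to the G. barbadense genome. A difference between Gb3–79 and either G. hirsutum line therefore cannot be told apart from a difference between gene models. The values of the Gb3–79 libraries matched 1 gene each of the G. barbadense table, namely Gobar.A01G177100 and Gobar.D11G191100 for the MYB4 homologs and Gobar.D11G176900 and Gobar.A13G135200 for the MYB6 homologs. By their gene IDs the MYB4 homologs lie on chromosomes A01 and D11 and the MYB6 homologs on D11 and A13. As a check of the labels, the summed FPKM of 4 MYB genes of the GhMYB25 and GhMYB109 clades was 413 to 496 in fiber libraries, 160 to 442 in wild-type epidermal libraries and 9.21 to 31.2 in GhMD17. None of these 4 genes was at 0 in both libraries of any group, and the study chose them on these same libraries. Their part in the results below was not tested.

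The MYB4 homolog Gohir.D11G181000 was low in the fiberless mutant and present at overlapping levels in fiber and epidermal cells of GhTM-1 at 2 DPA. Its FPKM in GhTM-1 was 7.71 and 7.37 in epidermal cells at 0 DPA, 16.6 and 9.46 in epidermal cells at 2 DPA, and 15.8 and 11.5 in fiber cells. In Gb3–79 it was 9.81 and 14.0 at 0 DPA, 9.68 and 7.83 in epidermal cells at 2 DPA, and 15.7 and 16.2 in fiber cells. In GhMD17 it was 0.839 and 1.61 at 0 DPA and 0.910 and 1.92 at 2 DPA. All 12 wild-type libraries, between 7.37 and 16.6, thus lay above all 4 GhMD17 libraries, and the lowest wild-type library was one of GhTM-1 at 0 DPA.

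The second MYB4 homolog, Gohir.A01G167300, was likewise low in GhMD17, but its highest levels were in the fiber cells. In GhTM-1 its FPKM was 4.65 and 6.63 in epidermal cells at 0 DPA, 2.65 and 6.13 in epidermal cells at 2 DPA, and 9.13 and 12.02 in fiber cells. In Gb3–79 it was 8.15 and 6.78 at 0 DPA, 9.03 and 5.56 in epidermal cells at 2 DPA, and 17.4 and 13.1 in fiber cells. In GhMD17 it was 1.63 and 1.13 at 0 DPA and 3.00 and 1.92 at 2 DPA. The fiber libraries of both lines were above every epidermal library, and the wild types overlapped GhMD17 only through the lower GhTM-1 replicate at 2 DPA.

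The MYB6 homolog Gohir.D11G168000 was the most abundant of the 4 genes in every epidermal library and ran the other way. In GhTM-1 its FPKM was 22.8 and 25.9 in epidermal cells at 0 DPA, 24.2 and 40.2 in epidermal cells at 2 DPA, and 12.7 and 11.3 in fiber cells. In Gb3–79 it was 16.04 and 15.8 at 0 DPA, 17.8 and 21.8 in epidermal cells at 2 DPA, and 9.75 and 8.54 in fiber cells. In GhMD17 it was 35.0 and 34.5 at 0 DPA and 30.5 and 42.9 at 2 DPA. The 4 fiber libraries were the lowest of all 16, and only GhTM-1 at 2 DPA reached the range of GhMD17.

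Gohir.A13G120500, the other MYB6 homolog, had the lowest levels of the 4 genes in fiber cells. In GhTM-1 its FPKM was 6.27 and 2.99 in epidermal cells at 0 DPA, 1.70 and 0.965 in epidermal cells at 2 DPA, and 0.681 in 1 fiber library while the other listed it at 0. In Gb3–79 it was 2.36 and 2.104 at 0 DPA, 5.43 and 3.73 in epidermal cells at 2 DPA, and 0.401 and 1.40 in fiber cells. In GhMD17 it was 8.52 and 7.83 at 0 DPA and 5.85 and 2.17 at 2 DPA. The highest group was GhMD17 at 0 DPA, and the highest fiber library overlapped epidermal cells of GhTM-1 at 2 DPA. An FPKM of 0 may be a failed estimate, so no fold is given for that library.

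**Figure D1:**
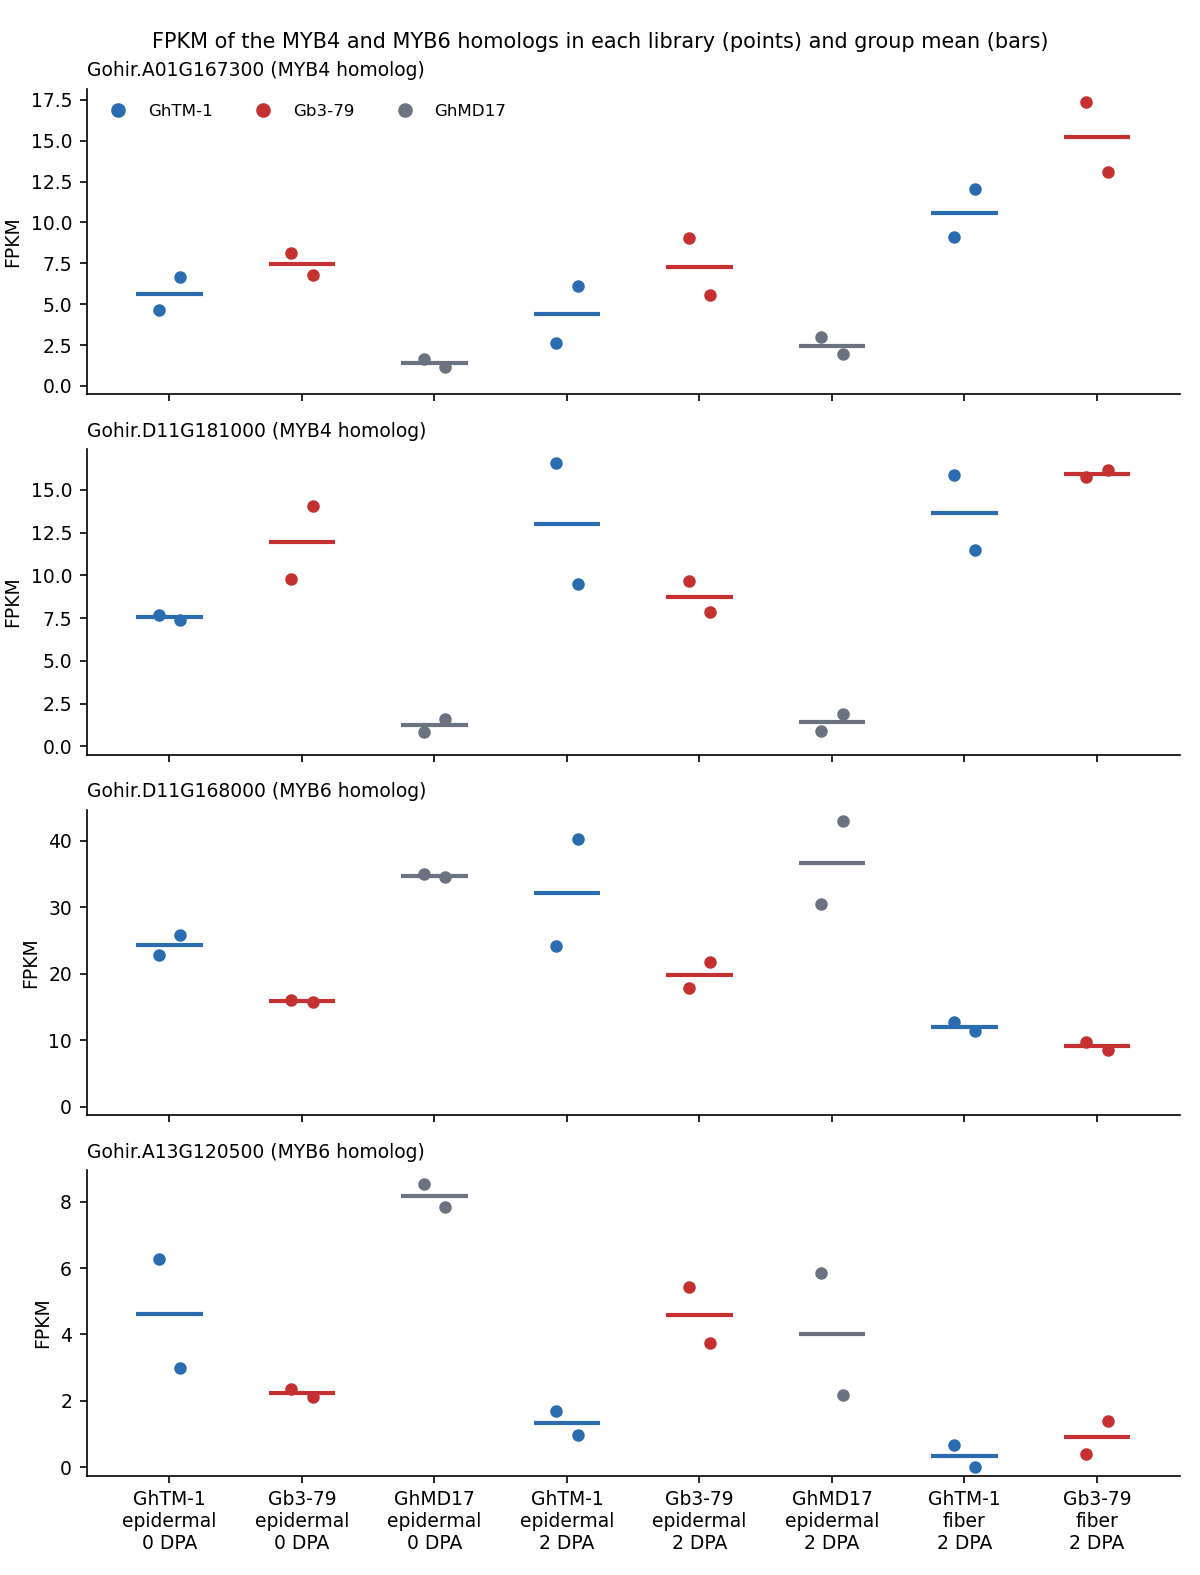
FPKM (y axis, linear, from 0) of the 4 genes in the 8 groups (x axis). Points are the 2 libraries of a group, bars are their mean, and colors mark the line. Gohir.D11G181000 lies between 0.839 and 1.92 in GhMD17 and between 7.37 and 16.6 in the wild types, whereas Gohir.D11G168000 is lowest in fiber cells, at 8.54 to 12.7.

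Ordered by group mean, Gohir.A01G167300 ran from fiber cells of Gb3–79, at 15.2 ± 3.03 (SD, n = 2), and of GhTM-1, at 10.6 ± 2.04 (SD, n = 2), down to GhMD17 at 0 DPA, at 1.38 ± 0.353 (SD, n = 2). Between these ends the 4 wild-type epidermal groups overlapped their neighbours in the order, and GhTM-1 at 2 DPA overlapped GhMD17 at 2 DPA. For Gohir.D11G181000, the order began with fiber cells of both lines, epidermal cells of GhTM-1 at 2 DPA and epidermal cells of Gb3–79 at 0 DPA, and each of these overlapped its neighbour. Its GhMD17 groups overlapped each other at the bottom, with means of 1.22 ± 0.543 and 1.41 ± 0.712 (SD, n = 2 each). Gohir.D11G168000 went from 36.7 ± 8.81 (SD, n = 2) in GhMD17 at 2 DPA to 9.15 ± 0.851 (SD, n = 2) in Gb3–79 fiber cells. Its GhMD17 and GhTM-1 epidermal groups overlapped their neighbours, while the Gb3–79 epidermal groups and the fiber groups each stood apart from the next. Gohir.A13G120500 had its highest mean in GhMD17 at 0 DPA, at 8.17 ± 0.487 (SD, n = 2). The next 3 groups in the order each overlapped the group below.

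The question of the fiber comparison was which genes differ between fibers and the epidermal cells beneath them at 2 DPA, and these are the values on which the genes were drawn. In log2(FPKM + 1), Gohir.A01G167300 was 1.17 ± 0.35 (SE) higher in fiber than in epidermal cells of GhTM-1 and 0.99 ± 0.35 (SE) higher in Gb3–79, which are 2.41-fold and 2.09-fold in mean FPKM. Gohir.D11G181000 was 1.82-fold higher in fiber cells of Gb3–79, a log2 difference of 0.80 ± 0.31 (SE). In GhTM-1 its ratio was only 1.05, with a log2 difference of 0.10 ± 0.31 (SE), and the fiber libraries fell inside the range of the epidermal ones. That value turned to −0.28 without replicate 2 of the epidermal cells and to −0.12 without replicate 1 of the fiber cells. The MYB4 name was thus attached to a gene with no separation of fiber from epidermal cells in GhTM-1 at 2 DPA.

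Both MYB6 homologs were lower in fiber cells. Gohir.D11G168000 differed by −1.31 ± 0.23 (SE) in GhTM-1 and by −1.03 ± 0.23 (SE) in Gb3–79 on the log2(FPKM + 1) scale, without overlap of the libraries in either line. Gohir.A13G120500 differed by −0.83 ± 0.46 (SE) in GhTM-1 and by −1.59 ± 0.46 (SE) in Gb3–79, and with a pseudocount of 0.1 in place of 1 these became −2.31 and −2.41. The added 1 therefore set much of the size of that difference in a gene near 0. Over all 42627 orthologs fitted, the median difference between fiber and epidermal cells was −0.09 in GhTM-1 and −0.11 in Gb3–79. Of the 16 other MYB genes of the study's tree, 9 had a value above 0 in GhTM-1 and 9 in Gb3–79.

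Against the epidermal cells of GhMD17 at 2 DPA, the fiber cells held more of the MYB4 homologs and less of the MYB6 homologs. Gohir.D11G181000 was 2.62 ± 0.31 (SE) higher in GhTM-1 fibers and 2.84 ± 0.31 (SE) higher in Gb3–79 fibers in log2(FPKM + 1). For Gohir.A01G167300 the differences were 1.75 ± 0.35 and 2.23 ± 0.35 (SE). Gohir.D11G168000 differed by −1.52 ± 0.23 and −1.88 ± 0.23 (SE), and Gohir.A13G120500 by −1.85 ± 0.46 and −1.35 ± 0.46 (SE), in the same order of lines. With a pseudocount of 0.1 the values of Gohir.A13G120500 became −3.72 and −2.08. Both contrasts share the GhMD17 libraries, and the median over all orthologs was −0.22 for GhTM-1 and −0.19 for Gb3–79.

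Epidermal cells at 0 DPA were then compared between the wild types and GhMD17, which asks how the layer with fiber initials differs from a layer without them. Both MYB4 homologs were higher in GhTM-1 than in GhMD17, and neither MYB6 homolog passed the test. The test was limma over the 42627 orthologs with an FPKM above 0 in any library, and a gene was called at a Benjamini-Hochberg adjusted p under 0.05. Gohir.D11G181000 was 1.96 ± 0.31 (SE) higher in log2(FPKM + 1), 6.16-fold in mean FPKM (limma, adjusted p = 0.00498). Gohir.A01G167300 was 1.47 ± 0.35 (SE) higher, 4.08-fold in mean FPKM (limma, adjusted p = 0.0392). For the MYB6 homologs the differences were −0.50 ± 0.23 (SE) in Gohir.D11G168000 (limma, adjusted p = 0.304) and −0.77 ± 0.46 (SE) in Gohir.A13G120500 (limma, adjusted p = 0.453). Thus 2 of the 4 genes were called, against 4.82% of all orthologs (2.96% higher), and the possible use of the 0 DPA lists in the choice makes this no independent support. Of the 16 other MYB genes, 3 were higher and 2 lower.

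The call of Gohir.D11G181000 in GhTM-1 held when any 1 library was left out (limma, adjusted p from 0.00430 to 0.0394), but not when only the 4 compared libraries were fitted (limma, adjusted p = 0.0656; range over all alternatives other than left-out libraries, 0.00175 to 0.0656). That of Gohir.A01G167300 was lost in 12 of 16 such fits (limma, adjusted p from 0.0223 to 0.205). It was kept only when an epidermal library of GhTM-1 or Gb3–79 at 2 DPA was left out. With only the compared libraries its adjusted p was 0.118 (limma; range over all such alternatives, 0.0204 to 0.118).

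In Gb3–79 at 0 DPA all 4 genes differed from GhMD17, the MYB4 homologs upward and the MYB6 homologs downward. Gohir.D11G181000 was higher by 2.54 ± 0.31 (SE) in log2(FPKM + 1) (limma, adjusted p = 0.000348) and Gohir.A01G167300 by 1.83 ± 0.35 (SE) (limma, adjusted p = 0.00555). Gohir.D11G168000 differed by −1.08 ± 0.23 (SE) (limma, adjusted p = 0.00934) and Gohir.A13G120500 by −1.51 ± 0.46 (SE) (limma, adjusted p = 0.0492). Called were 4 of 4 genes, against 15.1% of all orthologs, and 4 higher and 5 lower of the 16 other MYB genes. The comparison shares its GhMD17 libraries with that of GhTM-1. Here too, the possible use of the 0 DPA lists in the choice makes the calls no independent support. The other MYB genes were also picked by the study, so they are no neutral background.

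Both MYB4 calls held without any 1 library. The call of Gohir.D11G168000 was lost without replicate 2 of GhMD17 (limma, adjusted p = 0.0525) or replicate 2 of Gb3–79 at 0 DPA (limma, adjusted p = 0.0510), the lowest and highest over the 16 fits being 0.00315 and 0.0525. The call of Gohir.A13G120500 was lost in 10 of 16 fits (limma, adjusted p from 0.0374 to 0.171). These were the fits without a 0 DPA library of GhMD17 or Gb3–79, without a 2 DPA epidermal library of GhTM-1 or Gb3–79, or without a GhTM-1 fiber library. With a pseudocount of 0.1 its adjusted p was 0.218 (limma; range over all such alternatives, 0.0264 to 0.218).

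At 2 DPA the same comparison sets the epidermal cells left under the fibers against the epidermal cells of GhMD17. These libraries were the reference of the contrasts that chose the genes, so the p-values are not independent of the choice. In GhTM-1 only Gohir.D11G181000 was called, higher by 2.52 ± 0.31 (SE) in log2(FPKM + 1) and 9.21-fold in mean FPKM (limma, adjusted p = 0.00115). The difference was 0.58 ± 0.35 (SE) for Gohir.A01G167300 (limma, adjusted p = 0.456), −0.21 ± 0.23 (SE) for Gohir.D11G168000 (limma, adjusted p = 0.743) and −1.02 ± 0.46 (SE) for Gohir.A13G120500 (limma, adjusted p = 0.285). Called was 1 of the 4 genes, against 4.85% of all orthologs (2.77% higher), and 4 higher and 0 lower of the 16 other MYB genes. Fitted to the 4 compared libraries alone, the adjusted p of Gohir.D11G181000 was 0.0591 (limma; range over all such alternatives, 0.000253 to 0.0591), and it stayed called without any 1 library.

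In Gb3–79 at 2 DPA, Gohir.D11G181000 was higher than in GhMD17 by 2.04 ± 0.31 (SE) in log2(FPKM + 1) (limma, adjusted p = 0.00191) and Gohir.A01G167300 by 1.25 ± 0.35 (SE) (limma, adjusted p = 0.0461). Gohir.D11G168000 differed by −0.85 ± 0.23 (SE) (limma, adjusted p = 0.0379), and Gohir.A13G120500 by 0.24 ± 0.46 (SE) (limma, adjusted p = 0.847). Thus 3 of 4 genes were called, against 11% of all orthologs, and 5 higher and 3 lower of the 16 other MYB genes. Gohir.D11G181000 kept its call without any 1 library. The other calls were lost in most such fits, in 14 of 16 for Gohir.A01G167300 (limma, adjusted p from 0.0255 to 0.218) and in 13 of 16 for Gohir.D11G168000 (limma, adjusted p from 0.0139 to 0.220). Both were kept in the fits without replicate 1 or without replicate 2 of epidermal GhTM-1 cells of 2 DPA, and Gohir.D11G168000 also without replicate 1 of GhMD17 at 2 DPA. Neither was called when only the compared libraries were fitted (limma, adjusted p = 0.138 and 0.123; lowest over all such alternatives, 0.0276 and 0.0301).

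**Figure D2:**
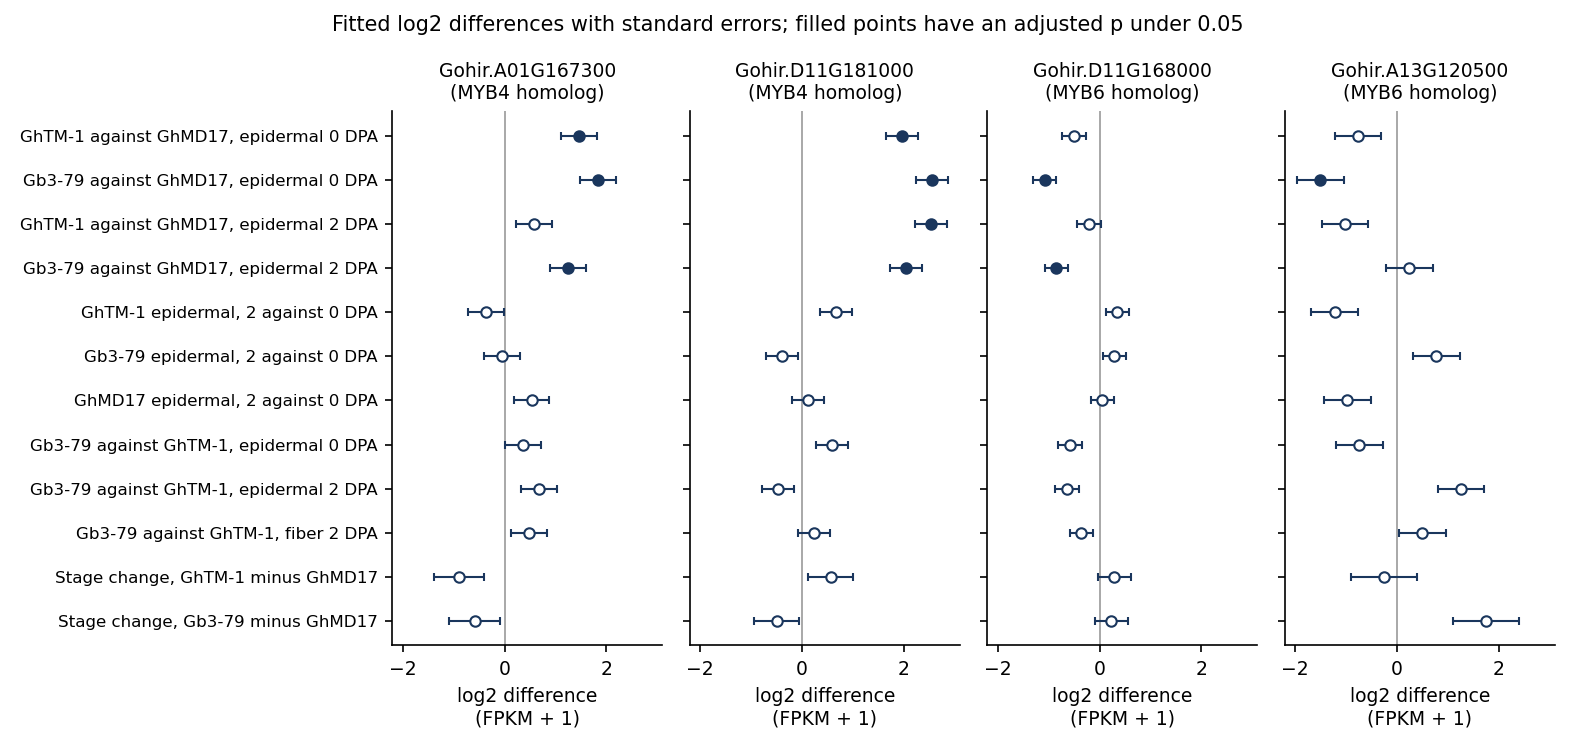
Fitted differences in log2(FPKM + 1) (x axis) of the 4 genes in 12 comparisons (y axis), with bars of 1 SE from limma. Filled points have an adjusted p under 0.05, and Gohir.D11G181000 is filled in all 4 comparisons of wild-type with GhMD17 epidermal cells, at 1.96 to 2.54.

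None of the 4 genes was called between 0 and 2 DPA in the epidermal cells of any line with limma. At the adjusted threshold 1.35% of all orthologs were called in GhTM-1, 0.898% in Gb3–79 and 0.678% in GhMD17. The shares at an unadjusted p under 0.05 were not counted. At that unadjusted limit there was 1 of the 4 genes in GhTM-1, 0 in Gb3–79 and 0 in GhMD17. The gene was Gohir.A13G120500, which differed by −1.23 ± 0.46 (SE) in log2(FPKM + 1) in GhTM-1 (limma, adjusted p = 0.314). Its value was 0.77 ± 0.46 (SE) in Gb3–79 (limma, adjusted p = 0.601) and −0.98 ± 0.46 (SE) in GhMD17 (limma, adjusted p = 0.587). Gohir.D11G181000 differed by 0.67 ± 0.31 (SE) in GhTM-1 and by −0.39 ± 0.31 (SE) in Gb3–79 (limma, adjusted p = 0.465 and 0.750). The remaining stage differences, those of Gohir.A01G167300, Gohir.D11G168000 and Gohir.D11G181000 in GhMD17, lay between −0.36 and 0.53.

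Neither was a difference in stage change between lines called with limma, where 0.298% of all orthologs were called for GhTM-1 minus GhMD17, 0.375% for Gb3–79 minus GhMD17 and 0.368% for Gb3–79 minus GhTM-1. At an unadjusted p under 0.05 there were 0, 1 and 2 of the 4 genes, a limit at which the share of all orthologs was not counted. The last comparison was added after the values were seen. Gohir.A13G120500 had the widest differences, 2.00 ± 0.65 (SE) between Gb3–79 and GhTM-1 (limma, adjusted p = 0.330) and 1.75 ± 0.65 (SE) between Gb3–79 and GhMD17 (limma, adjusted p = 0.471).

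The wild types were also compared with each other, and with limma none of the 4 genes was called in epidermal cells at 0 DPA, epidermal cells at 2 DPA or fiber cells. Among all orthologs 9.44%, 9.51% and 7.15% were called at the adjusted threshold. At an unadjusted p under 0.05 there were 1, 2 and 0 of the 4 genes, and the share of all orthologs at that limit was not counted. Gohir.D11G168000 had a lower level in Gb3–79 in each case, with differences of −0.58, −0.64 and −0.36, each ± 0.23 (SE), in log2(FPKM + 1) (limma, adjusted p = 0.158, 0.120 and 0.469). The difference at 2 DPA was called without replicate 1 of the GhTM-1 epidermal cells (limma, adjusted p = 0.0259; highest of the 16 fits, 0.523). Gohir.A13G120500 went from −0.74 ± 0.46 (SE) at 0 DPA to 1.26 ± 0.46 (SE) in epidermal cells at 2 DPA (limma, adjusted p = 0.383 and 0.124).

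The MYB4 homologs and Gohir.D11G168000 ran in opposite directions between fiber cells and GhMD17, and their ratio was taken within each library. No ratio to the other MYB6 homolog, Gohir.A13G120500, was taken, although the study's tree places Gohir.D11G168000 beside Arabidopsis MYB106 and away from Arabidopsis MYB6. The FPKM ratio of Gohir.D11G181000 to Gohir.D11G168000 was 0.0240 to 0.0466 in GhMD17, 0.235 to 0.888 in wild-type epidermal cells and 1.01 to 1.89 in fiber cells. The ratio of Gohir.A01G167300 to Gohir.D11G168000 was 0.0329 to 0.0985 in GhMD17, 0.110 to 0.508 in wild-type epidermal cells and 0.718 to 1.78 in fiber cells. Neither ratio overlapped between these 3 sets of libraries, and a ratio within a library does not depend on how the libraries were scaled. The choice of the genes by their fiber contrast fixed the order of fiber and epidermal cells, so no test was made. The ratio was taken because the genes ran in opposite directions between fiber cells and GhMD17, so the gap to GhMD17 is no independent support either.

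**Figure D3:**
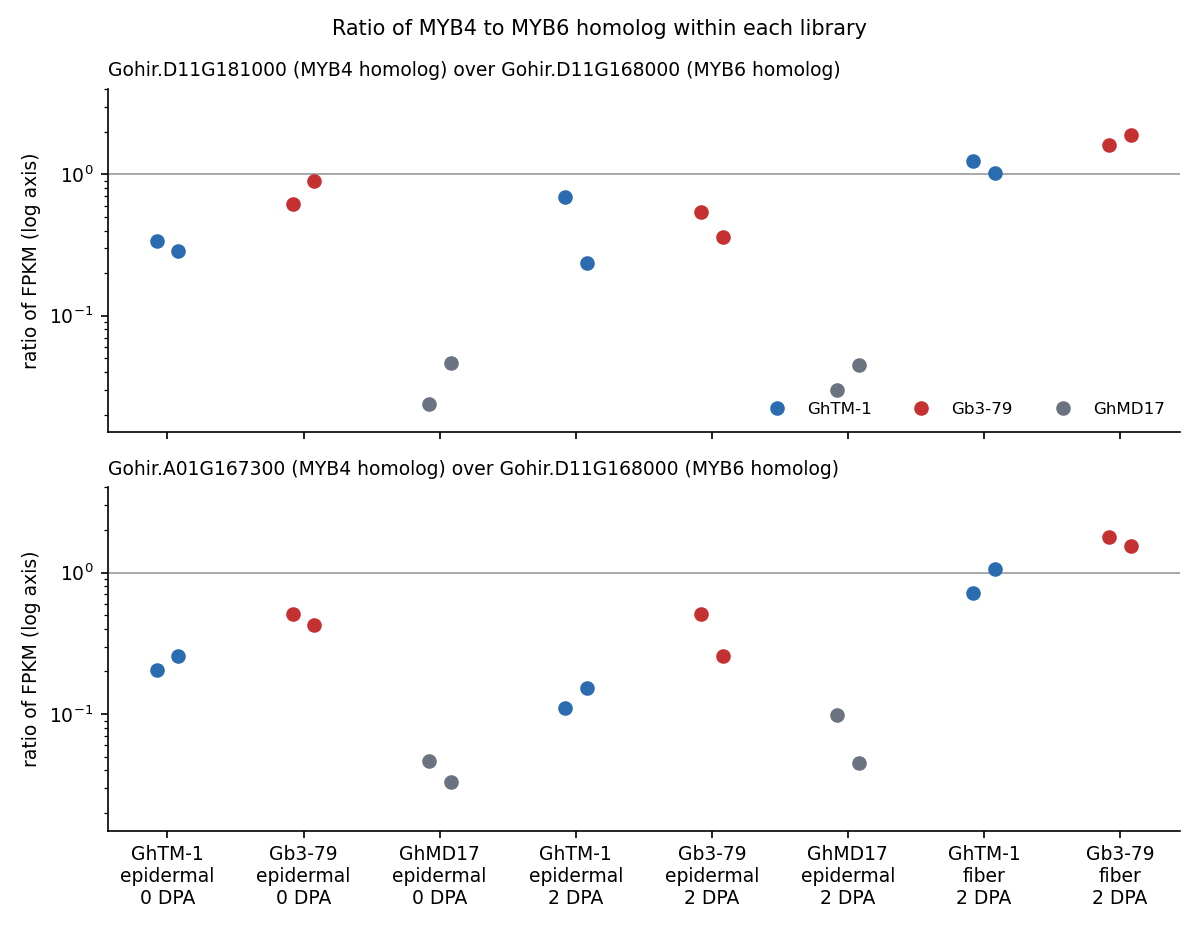
FPKM ratio of each MYB4 homolog to the MYB6 homolog Gohir.D11G168000 (y axis, log scale) in each library of the 8 groups (x axis). Gohir.D11G168000 has its MYB6 name from the study's heat map, whereas the study's tree places it beside Arabidopsis MYB106. Points are libraries, and the line marks a ratio of 1. The ratio of Gohir.D11G181000 is at most 0.0466 in GhMD17 and at least 1.01 in fiber cells.

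The study's tree places Gohir.D01G158500 beside Gohir.A01G167300 and Gohir.A11G173900 beside Gohir.D11G181000. All were drawn by the study among the genes higher in fiber cells, so the same limits on the choice hold for them. The files do not say whether these are pairs from the A and D subgenomes of this allotetraploid. Gohir.D01G158500 was at 6.77 to 25.8 FPKM in the wild types and at 0.261 to 2.66 in GhMD17, without overlap. It was higher than in GhMD17 in all 4 epidermal comparisons, by 3.47 in GhTM-1 and 2.69 in Gb3–79 at 0 DPA and by 2.36 and 1.81 at 2 DPA, each ± 0.41 (SE) in log2(FPKM + 1) (limma, adjusted p = 0.000682, 0.00132, 0.00744 and 0.0159). Within each wild type its fiber level overlapped its epidermal level at 0 DPA, and in Gb3–79 also at 2 DPA. The fiber level of Gohir.A01G167300 did not overlap any epidermal group.

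Gohir.A11G173900 did not have the low level of its neighbour in GhMD17 at 0 DPA. It was at 5.78 and 5.03 FPKM in GhMD17 at 0 DPA, just below the 6.96 and 6.01 of GhTM-1 and above the 2.58 and 3.96 of Gb3–79. The differences at 0 DPA were 0.22 ± 0.29 (SE) in GhTM-1 and −0.60 ± 0.29 (SE) in Gb3–79 in log2(FPKM + 1) (limma, adjusted p = 0.814 and 0.206). At 2 DPA it was called in GhTM-1, at 1.30 ± 0.29 (SE) (limma, adjusted p = 0.0287), and not in Gb3–79, at 0.95 ± 0.29 (SE) (limma, adjusted p = 0.0617). The FPKM ratio of Gohir.D11G181000 to Gohir.A11G173900 was 0.145 to 0.570 in GhMD17 and 0.871 to 3.81 in the wild types. The ratio of Gohir.A01G167300 to Gohir.D01G158500 was 1.08 to 4.34 in GhMD17, 0.656 to 1.19 in Gb3–79 and 0.199 to 0.517 in GhTM-1. In this pair Gohir.A01G167300 thus held more of the sum in the mutant than in GhTM-1. Both genes were low in GhMD17, at 1.13 to 3.00 and 0.261 to 2.66 FPKM, and the ratio of 4.34 came from replicate 2 at 0 DPA alone.

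**Figure D4:**
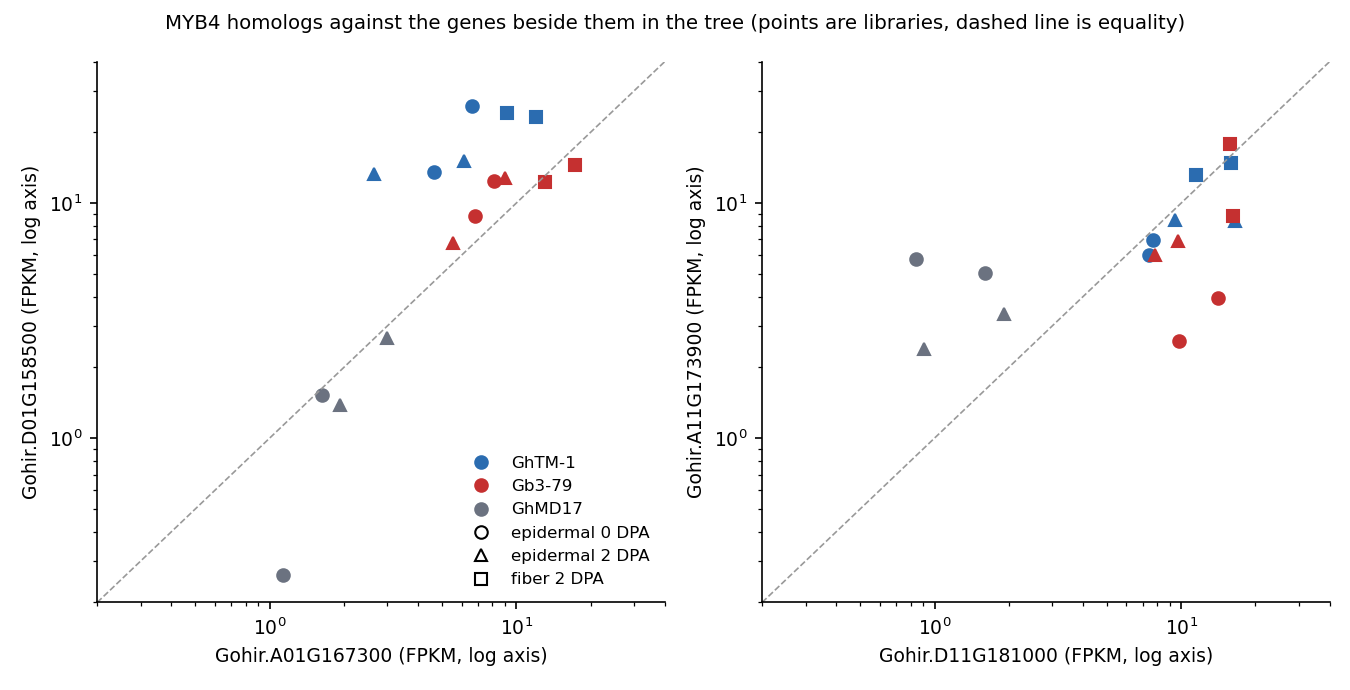
FPKM of each MYB4 homolog (x axis, log scale) against the gene beside it in the study's tree (y axis, log scale). Points are the 16 libraries, colors mark the line, shapes mark the cells, and the dashed line marks equal FPKM. In the right panel all 4 GhMD17 libraries lie above the line, with ratios of 0.145 to 0.570, whereas in the left panel all 4 lie below it, with ratios of 1.08 to 4.34.

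Across the 16 libraries the MYB4 homologs had a Pearson r of 0.785 with each other in log2(FPKM + 1), and the MYB6 homologs one of 0.574. Between a MYB4 and a MYB6 homolog r was −0.856 to −0.683. These are descriptions, since libraries of a group are replicates and the groups share lines and cell types. The study drew the MYB4 homologs as higher and the MYB6 homologs as lower in fiber cells on these same libraries. The signs of r were thus largely set by that choice. Of 23335 orthologs with a mean over 5 FPKM in at least 1 group, those most like Gohir.D11G181000 were Gohir.A05G384400 (r = 0.967), Gohir.D12G043900 (r = 0.965) and Gohir.D04G026200 (r = 0.963). Each of the 3 was lowest in GhMD17 at 0 DPA, at 0.570, 38.5 and 2.84 FPKM, as was Gohir.D11G181000. Picking by r over the same libraries largely sets such shared ends.

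For Gohir.A01G167300 the most similar orthologs were Gohir.A10G145900 (r = 0.943), Gohir.A05G287300 (r = 0.939) and Gohir.A12G160100 (r = 0.939), all highest in Gb3–79 fiber cells. For Gohir.D11G168000 they were Gohir.D12G214500 (r = 0.952), Gohir.A05G170100 (r = 0.951) and Gohir.A07G044300 (r = 0.946), all highest in GhMD17 at 2 DPA and lowest in Gb3–79 fiber cells. Among them Gohir.A05G170100 had the widest range, with group means from 15.8 to 994 FPKM. For Gohir.A13G120500 they were Gohir.A06G046000 (r = 0.946), Gohir.D08G174500 (r = 0.938) and Gohir.D02G037000 (r = 0.938), all highest in GhMD17 at 0 DPA. The shared highest and lowest groups again follow largely from the picking by r. None of these 12 orthologs was another MYB gene of the study's tree.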

How the data were processed

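The authors mapped LCM reads with Tophat 2.1.1, kept uniquely mapped reads and computed the deposited FPKM with Cufflinks 2.2.1 for each library, without pooling replicates. SAMtools 1.5 is also named in the submitters' notes. The ortholog table was used as deposited. Orthologs at 0 in every library were left out, and log2(FPKM + 1) was fitted with limma 3.58.1 in R 4.3.3 (lmFit on the 8 group means over all 16 libraries, eBayes with a trend). Contrasts were two-sided with Benjamini-Hochberg adjustment over 42627 orthologs, and fold values are ratios of mean FPKM. On this log2 scale changes of low genes are understated. The paper names ANOVA without its groups or scale. The p-values rest on a spread between biological replicates that is shared per gene over all 8 groups and moderated across orthologs. They do not rest on the 2 replicates of the compared groups alone.

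The members and lists were chosen with earlier results of these data known. Genes named were the 4 homologs, the other MYB4 homologs beside them in the study's tree, and for each homolog the 3 orthologs with the highest Pearson r over the 16 libraries. G. barbadense gene IDs were matched by equal values in all 6 Gb3–79 libraries, within 1e-09. Phenylpropanoid genes and sequences are not given, because the reference table used here held none of the gene IDs. Alternatives were a pseudocount of 0.1, a mean over 1 FPKM, only the compared libraries, the replicate block and median-ratio rescaling. The study's limits (P under 0.01, 5 FPKM, ratio 1.5) were also set, with the unadjusted limma p in place of the study's ANOVA. For differences in stage change only the limit on P was used. Each library was also left out in turn, where a lone replicate was assumed to vary like the other groups. The procedure was also run on simulated data with large changes set in genes with a mean over 5 FPKM. That simulation does not cover low genes or small changes. Plots used matplotlib 3.10.9 in Python 3.11.15.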

Additional observations from a re-analysis of the deposited data

Results flagged for a closer look

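In epidermal cells, Gohir.A13G120500 moved from 0 to 2 DPA in opposite directions in different lines, with no overlap between stages in any of them. Its FPKM was 2.36 and 2.104 at 0 DPA and 5.43 and 3.73 at 2 DPA in Gb3–79, against 6.27 and 2.99 and then 1.70 and 0.965 in GhTM-1, and 8.52 and 7.83 and then 5.85 and 2.17 in GhMD17. The stage change of Gb3–79 was 2.00 ± 0.65 (SE) above that of GhTM-1 and 1.75 ± 0.65 (SE) above that of GhMD17 in log2(FPKM + 1). Neither passed the adjusted threshold (limma, adjusted p = 0.330 and 0.471, unadjusted p = 0.0105 and 0.0208), and both comparisons share the Gb3–79 libraries. The lack of overlap is weak evidence, because an exact test of 2 against 2 libraries cannot give a two-sided p under 0.333. How many of all orthologs meet this pattern was not counted.

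Gohir.D11G181000 had both replicates higher at 2 than at 0 DPA in GhTM-1 (7.71 and 7.37, then 16.6 and 9.46 FPKM) and both lower in Gb3–79 (9.81 and 14.0, then 9.68 and 7.83 FPKM). The difference in stage change, Gb3–79 minus GhTM-1, was −1.06 ± 0.44 (SE) (limma, adjusted p = 0.503, unadjusted p = 0.0367). The same limit of 2 libraries per stage holds for this gene.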

How the results depend on the processing

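The replicate numbers did not pair the libraries. Over 28 pairs of groups the correlation of the differences between replicates was −0.0969 to 0.136, with 3 over 0.1. With the replicate block, 1 of the 4 genes was called between GhTM-1 and GhMD17 at 0 DPA instead of 2, since Gohir.A01G167300 reached an adjusted p of 0.0531, and in Gb3–79 at 2 DPA its adjusted p was 0.0605 (limma). Fitting only the compared libraries left 0 calls for GhTM-1 against GhMD17 at 0 DPA, 0 at 2 DPA and 1 for Gb3–79 against GhMD17 at 2 DPA, with fewer samples behind each spread. Among the other alternatives, apart from leaving out a library, none moved a count of calls by over 1.5 times.

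Leaving out 1 library at a time gave 1 to 2 calls for GhTM-1 against GhMD17 at 0 DPA, 2 to 4 for Gb3–79 at 0 DPA, 1 to 3 for Gb3–79 at 2 DPA, and 0 to 1 for Gb3–79 against GhTM-1 in epidermal cells at 2 DPA. In these fits the sign turned for values near 0, and the cause was not tested. From 0 to 2 DPA, Gohir.A01G167300 ranged from −0.85 to 0.12 in GhTM-1 and from −0.36 to 0.25 in Gb3–79, Gohir.D11G168000 from −0.00855 to 0.70 in GhTM-1 and from −0.18 to 0.30 in GhMD17, and Gohir.D11G181000 from −0.20 to 0.41 in GhMD17. Against GhMD17 at 2 DPA, Gohir.D11G168000 ranged from −0.56 to 0.15 in GhTM-1 and Gohir.A13G120500 from −0.31 to 0.80 in Gb3–79. Stage change differed from −0.0649 to 0.65 (Gohir.D11G168000) and from −0.81 to 0.30 (Gohir.A13G120500) for GhTM-1 minus GhMD17, from −0.00735 to 0.47 (Gohir.D11G168000) for Gb3–79 minus GhMD17, and from −0.18 to 0.79 (Gohir.A01G167300) and −0.42 to 0.30 (Gohir.D11G168000) for Gb3–79 minus GhTM-1. The fiber difference of Gohir.D11G181000 in GhTM-1 ranged from −0.28 to 0.47. Rescaling moved no median over all orthologs by over 0.1 (log2) and no call. The pseudocount of 0.1 shifted the medians of fiber against GhMD17 by −0.22.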
